A study of Homo sapiens with 8 samples.

Results

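Aminoacyl-tRNA synthetases are the enzymes that join each amino acid to its own tRNA. The 36 genes described here were chosen by symbol in a table of 25369 genes: 18 are cytosolic enzymes, 16 are mitochondrial enzymes (symbols ending in ARS2), and GARS and KARS serve both compartments. All 36 were found, and all 36 passed the filter on low values. RNA was sequenced from EPC2-hTERT cells, a telomerase-immortalized line of human esophageal epithelial cells labelled wild type, so the results concern 1 line. Cells were grown to confluence on permeable membranes for 2 days, kept in medium with 1.8 mM CaCl2 for 5 days and exposed to air for 4 days, which lets them stratify. Cultures of the vehicle group (4 libraries) received DMSO, and cultures of the DMOG group (4 libraries) received 1 mM dimethyloxalylglycine, both for 18 h before harvest. DMOG inhibits prolyl hydroxylases. These oxygen-dependent enzymes tag the alpha subunits of HIF, the hypoxia-inducible transcription factor, so that the cell destroys them. The study set the groups against each other to see what DMOG does to gene expression in this epithelium. Which of the enzymes that DMOG acts on lies behind a change was not tested.

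Cytosolic translation and mitochondrial translation run on separate sets of charged tRNAs, and in human cells most synthetases of the mitochondrion are encoded by their own nuclear genes. GARS and KARS are exceptions, since each gene gives both a cytosolic and a mitochondrial form. Several cytosolic enzymes are held together in the multi-tRNA synthetase complex on scaffold proteins. Uncharged tRNA activates the kinase GCN2, which phosphorylates the initiation factor eIF2, and translation of the transcription factor ATF4 then rises. Many genes of cytosolic synthetases are known targets of ATF4, along with genes of amino acid synthesis and transport. ATF4 joins with C/EBP family proteins at a sequence called the C/EBP-ATF response element.

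Libraries held 31245695 to 39931833 reads in genes, and levels are RPKM, reads scaled to gene length and to the library's total. The synthetase with the fewest reads in any library still had 17. All 8 listed squamous epithelial markers were at 1 RPKM or more in at least 4 libraries. In the comparison of replicates 1, 3 and 4 of each group, KRT5, KRT14, SFN and DSG3 of these 8 were higher with DMOG after scaling (log2 fold changes 0.75, 0.69, 0.55 and 0.36) and none as deposited, where TP63 was lower (-0.57, adjusted p = 0.0084). Fibroblast genes other than COL1A1 were under 0.1 RPKM in every library, with DCN and LUM at 0, and summed fibroblast signal was 8.73 to 14.1 RPKM in vehicle and 19.0 to 32.0 RPKM with DMOG. Of the leukocyte markers, CD68 made up nearly the whole sum, which was 42.8 to 73.5 RPKM in vehicle and 61.0 to 93.2 RPKM with DMOG, and TYROBP was at 0 throughout. Of the endothelial markers CDH5 was at 0 throughout, and the sum was 1.44 to 1.97 RPKM in vehicle and 0.870 to 1.69 RPKM with DMOG. COL1A1 was higher with DMOG in that comparison (log2 fold change 1.32, adjusted p = 0.0053), as was CD68 (0.79, adjusted p = 0.0388, and 0.117 as deposited). The part of these marker changes in the results was not tested. DMOG replicate 2 stood apart from the other 3 DMOG libraries. Over all genes tested, its scaled log2 distances from the vehicle mean ran from -1.22 to 1.78, and those of DMOG replicate 3, the narrowest of the others, from -3.32 to 3.66. For 25 of the 36 synthetases its RPKM as deposited lay within the range of the 4 vehicle libraries, for 10 below it and for 1 above it. The same shares over all genes were not counted. The authors' own deposited comparison used replicates 1, 3 and 4 of each group, and the sources used here give no reason for that. Results are therefore given for all 8 libraries and for those 6 libraries, and the p-values of the second comparison make no allowance for how its libraries were picked.

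In vehicle cultures the cytosolic enzymes stood well above most mitochondrial enzymes. GARS, the glycyl-tRNA synthetase, had the highest level at 219 ± 16.3 RPKM (SD, n = 4), followed by the methionyl enzyme MARS at 137 ± 19.5 RPKM and the threonyl enzyme TARS at 119 ± 6.78 RPKM. The ranges of the vehicle libraries did not overlap between GARS and MARS, but those of MARS and TARS did. EPRS, IARS, SARS, YARS and WARS followed each other between 72.0 and 65.2 RPKM on average, with ranges that overlapped. HARS, the histidyl enzyme, was the lowest of the cytosolic genes at 24.3 ± 2.23 RPKM, within the spread of FARSB and DARS. Among mitochondrial enzymes IARS2, which charges isoleucine, reached 40.0 ± 2.09 RPKM and lay among the cytosolic genes, while the next, CARS2 for cysteine, was at 17.1 ± 4.23 RPKM. PARS2, the mitochondrial prolyl enzyme, was lowest at 1.10 ± 0.145 RPKM. VARS and VARS2 are left out of this order because the table lists them at 7 and 6 positions, the extra ones on alternative haplotypes of chromosome 6. Their RPKM divide by the summed length of those positions and so understate their levels.

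**Figure D1:**
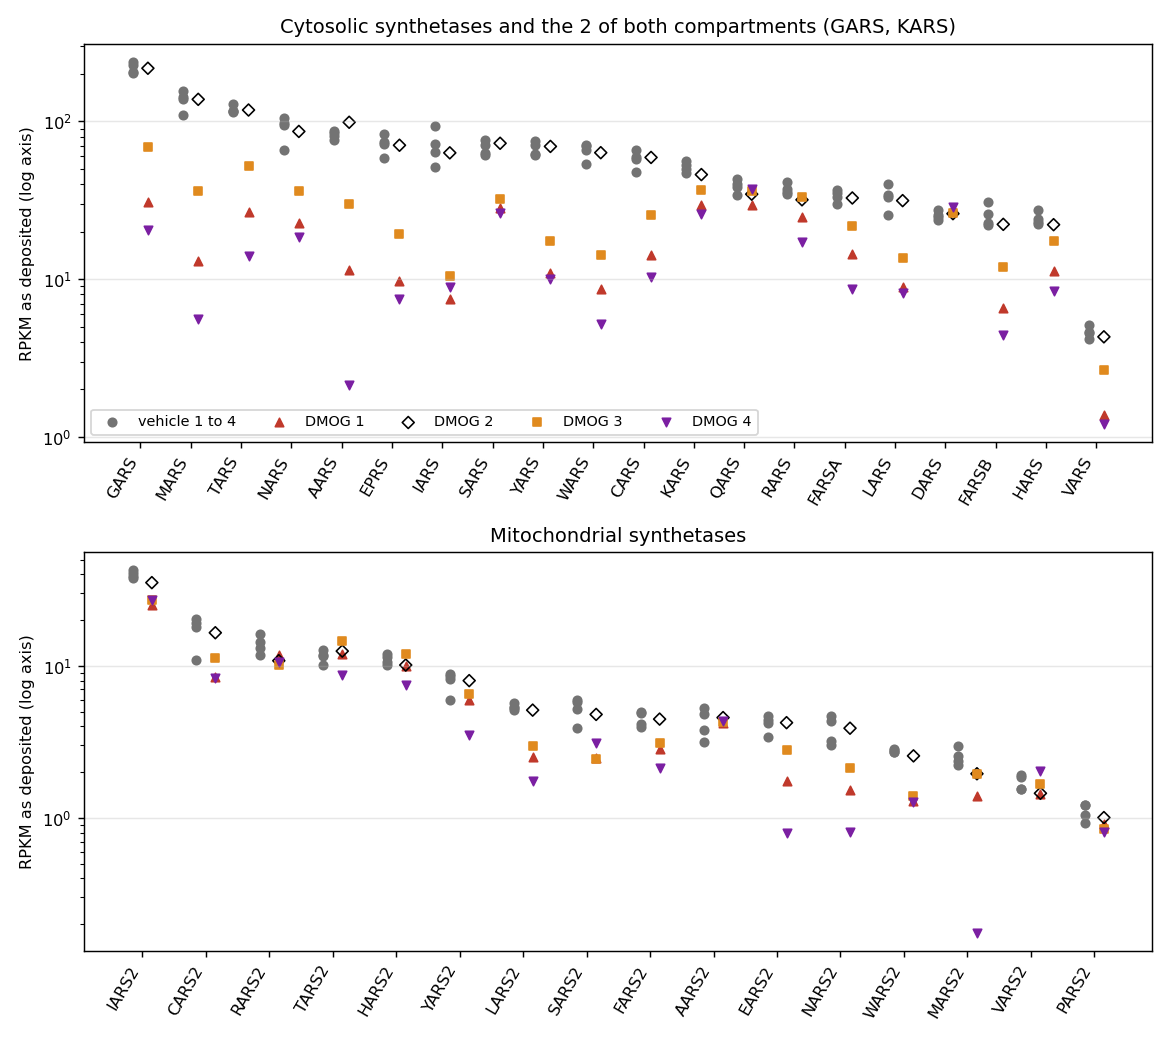
RPKM as deposited (log axis) of each synthetase gene in each library, cytosolic genes with GARS and KARS above and mitochondrial genes below, ordered by vehicle level. Grey points are vehicle replicates 1 to 4, and the other symbols are DMOG replicates 1 to 4. DMOG replicates 1, 3 and 4 lie far below vehicle for most cytosolic genes and closer to it for most mitochondrial genes, while the open diamonds of DMOG replicate 2 lie near the vehicle points. VARS and VARS2 levels are understated, as the text explains.

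Over the 6 libraries, 14 of 18 cytosolic synthetases fell with DMOG, 1 rose and 3 did not pass the test. Both genes that serve the 2 compartments fell. Of the 16 mitochondrial synthetases 5 fell, none rose and 11 did not pass. The median log2 fold change, DMOG minus vehicle, was -1.53 over the cytosolic genes and -0.38 over the mitochondrial genes, against -0.00 over all 11122 genes tested. In those 11122 genes 16.1% fell and 13.7% rose (limma-trend, adjusted p under 0.05), and the share that fell was 77.8% among cytosolic and 31.3% among mitochondrial synthetases. Of all genes 3.01% both passed the test and were at least 2-fold lower, and 12 synthetases were among them: 11 cytosolic genes and GARS. The absence of mitochondrial genes from that count depends on the setting, since 1 is added before the log, which damps changes of low genes. With the RPKM as deposited 14 cytosolic and 2 mitochondrial genes met both limits, as did 807 of the 11122 genes. In the authors' deposited comparison NARS2 and EARS2 had log2 fold changes of -1.14 and -1.03. In bulk RNA, fewer cells that make a transcript and less of it in each cell cannot be told apart.

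These counts depend on scaling and on single libraries. Values were divided by median-ratio factors, which set the median change of all genes near 0. With the RPKM as deposited that median was -0.26 for the 6 libraries, 682 genes rose (6.13%) and 3836 fell (34.5%), against 1526 and 1792, and 26 synthetases fell with none higher. Leaving out replicate 1 or 4 of vehicle or replicate 1 of DMOG lowered the 21 synthetases called lower to 10, 11 and 10, and the mitochondrial count of 5 to 0, 1 and 0. Without those same libraries the count over all genes called lower was 539, 587 and 607. With replicate number as a block, 24 synthetases were called lower, among them 15 cytosolic and 7 mitochondrial. Of the 21 calls, 10 held under all 13 alternatives tried, with a largest adjusted p of 0.0476: CARS, EPRS, GARS, IARS, LARS, MARS, NARS, SARS, WARS and YARS. None of these 13 alternatives includes DMOG replicate 2, so they do not show whether the calls hold with that library.

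Over all 8 libraries no gene passed the test in either direction (0% higher and 0% lower, limma-trend), and limma-voom on the reads called none either. At an unadjusted p under 0.05, 1556 genes were higher and 1813 lower, and of the synthetases 1 was higher (DARS) and 22 were lower: 15 cytosolic, GARS, KARS and 5 mitochondrial. The smallest adjusted p of a synthetase was 0.118. The median log2 fold change was -1.13 over cytosolic genes and -0.27 over mitochondrial genes. Leaving out DMOG replicate 2 from the 8 libraries raised the calls over all genes to 1724 higher and 1970 lower, and those of the synthetases to 1 higher and 24 lower. Leaving out any other single library gave 0 calls.

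**Figure D2:**
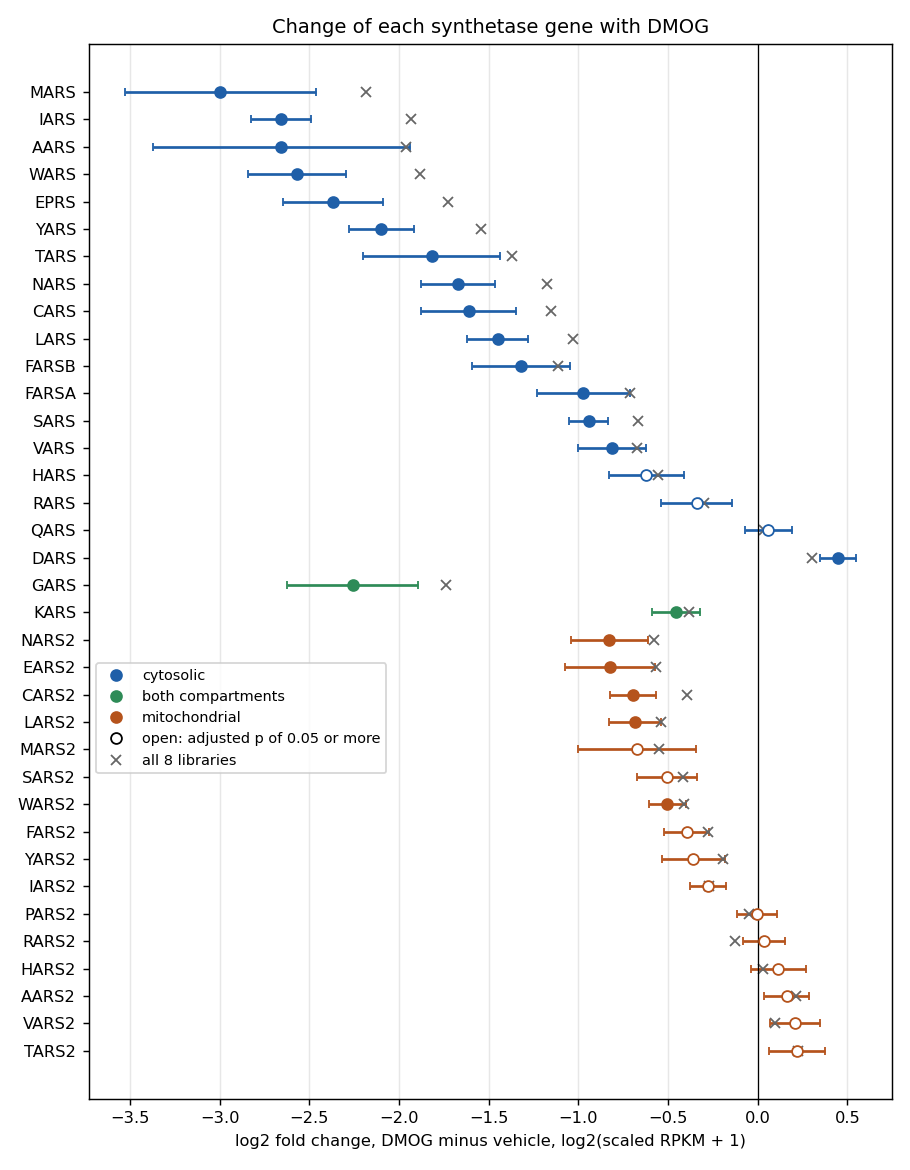
Log2 fold change of each synthetase gene, DMOG minus vehicle, on the log2(scaled RPKM + 1) scale. Circles are the 6-library comparison with bars of 1 standard error, filled where the adjusted p is under 0.05 and open otherwise, and crosses are the 8-library values. Cytosolic genes spread from -3.00 (MARS) to 0.45 (DARS), mitochondrial genes from -0.83 (NARS2) to 0.22 (TARS2), and most crosses lie closer to 0 than their circles.

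Promoters of the synthetase genes were searched for the C/EBP-ATF response element, whether or not the gene fell, since several of the cytosolic genes are known ATF4 targets. RefSeq (GRCh38.p14) gave a promoter of 300 bases, 250 before to 50 after the start of the gene, for 30 of the 36 synthetases. None was matched for LARS, VARS and YARS, which fell, for DARS, which rose, or for AARS2 and VARS2. The letters TGATGNAA, read on both strands, were in 6 of 14 cytosolic promoters (42.9%), 0 of the 2 promoters of GARS and KARS, 1 of 14 mitochondrial promoters (7.14%) and 1003 of 27305 promoters in all (3.67%). Matches wholly within the 250 bases before the start were fewer: 2 of 14 cytosolic promoters (14.3%), 1 of 14 mitochondrial promoters (7.14%) and 3.19% of all promoters. The 7 matches are shown as 30 bases of the gene's own strand, with the matching letters in capitals, to let their spelling and place be compared.
MARS, chr12:57488053-57488082, plus strand: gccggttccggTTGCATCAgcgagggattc
IARS, chr9:92293692-92293721, minus strand: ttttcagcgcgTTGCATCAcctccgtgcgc
AARS, chr16:70289675-70289704, minus strand: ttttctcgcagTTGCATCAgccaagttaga
TARS, chr5:33440956-33440985, plus strand: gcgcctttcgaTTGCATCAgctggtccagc
NARS, chr18:57621804-57621833, minus strand: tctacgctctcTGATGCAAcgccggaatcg
CARS, chr11:3057407-3057436, minus strand: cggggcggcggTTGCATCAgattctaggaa
YARS2, chr12:32756076-32756105, minus strand: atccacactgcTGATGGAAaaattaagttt

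All 6 cytosolic matches hold the same 8 letters, TTGCATCA or its reverse complement TGATGCAA, and the YARS2 match does not. In CARS, MARS and IARS the match began 2, 4 and 13 bases before the RefSeq start, in TARS and NARS 2 and 14 bases after it, and in AARS and YARS2 187 and 197 bases before it. All 6 of these cytosolic genes fell, and YARS2 did not pass the test. EPRS, WARS, FARSA, FARSB and SARS also fell, and their promoter windows do not hold these letters. The letters ACGTG, a spelling of the core of the site that HIF binds, were counted separately on both strands and could overlap the other motif. Other spellings of that core were not counted. They were in 3 of 14 cytosolic promoters (21.4%), 0 of the 2 of GARS and KARS, 5 of 14 mitochondrial promoters (35.7%) and 5900 of all 27305 (21.6%). No binding was measured, and a match is only a match of letters.

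The 6 cytosolic genes with the largest falls charge methionine, isoleucine, alanine, tryptophan, glutamate with proline, and tyrosine. MARS, at chr12:57881736-57910438 (hg19, as are all gene positions here), had 144, 110, 138 and 157 RPKM in vehicle replicates 1 to 4 and 13.0, 138, 36.3 and 5.61 RPKM in DMOG replicates 1 to 4. DMOG replicates 1, 3 and 4 were all below every vehicle library, and DMOG replicate 2 lay within the vehicle range. Its mean over the 6 libraries went from 146 ± 9.52 to 18.3 ± 16.0 RPKM (SD, n = 3 each). Its log2 fold change was -3.00 ± 0.53 (SE, adjusted p = 0.0103). Only 8 of the 11122 genes had a lower value of that measure. IARS, at chr9:94972490-95056038, had 71.5, 51.1, 63.7 and 93.1 RPKM in vehicle and 7.44, 63.2, 10.5 and 8.96 RPKM with DMOG. The low DMOG libraries of IARS were close to each other, so its log2 fold change of -2.66 ± 0.17 (SE, adjusted p = 0.00158) had the smallest error of the 6.

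AARS, at chr16:70286297-70323412, had 80.3, 87.4, 76.8 and 83.9 RPKM in vehicle and 11.5, 98.8, 30.1 and 2.13 RPKM with DMOG. Its vehicle libraries were tight and its low DMOG libraries were spread, and DMOG replicate 2 lay above every vehicle library. The log2 fold change was -2.66 ± 0.72 (SE, adjusted p = 0.0329), with the largest error of any synthetase, and the call was lost when replicate 1, 3 or 4 of vehicle was left out (adjusted p = 0.0931, 0.0822 and 0.093), when replicate 1 of DMOG was (0.0881), and without the filter on low values (0.0765). WARS, at chr14:100800125-100842680, had 70.4, 53.8, 70.8 and 65.9 RPKM in vehicle and 8.66, 63.4, 14.2 and 5.21 RPKM with DMOG. Its 3 low DMOG libraries did not overlap with vehicle, and the log2 fold change was -2.57 ± 0.27 (SE, adjusted p = 0.00402).

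EPRS, a single protein with both a glutamyl and a prolyl enzyme, lies at chr1:220141942-220220000. It had 72.3, 59.0, 74.0 and 82.8 RPKM in vehicle and 9.68, 70.6, 19.2 and 7.51 RPKM with DMOG. DMOG replicates 1, 3 and 4 lay under all vehicle libraries, and the log2 fold change was -2.37 ± 0.28 (SE, adjusted p = 0.00458). YARS, at chr1:33240840-33283633, had 70.8, 61.2, 61.9 and 75.6 RPKM in vehicle and 10.9, 69.4, 17.4 and 9.99 RPKM with DMOG. The same 3 libraries were low, and the log2 fold change was -2.10 ± 0.18 (SE, adjusted p = 0.00241). By position MARS overlaps DDIT3 on the other strand by 68 bases and YARS overlaps S100PBP by 591 bases. The sources used here do not say whether reads were counted by strand. The neighbours had at most 8.40 RPKM (DDIT3) and 3.56 RPKM (S100PBP) in any library. Their part in the MARS and YARS values was not tested.

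A further 8 cytosolic genes fell by smaller amounts. TARS for threonine, NARS for asparagine, CARS for cysteine and LARS for leucine had log2 fold changes of -1.82, -1.67, -1.61 and -1.45, with adjusted p of 0.0157, 0.00501, 0.00876 and 0.00458. NARS had 95.5, 66.3, 97.9 and 106 RPKM in vehicle and 22.6, 86.4, 36.2 and 18.5 RPKM with DMOG, and LARS had 33.9, 25.6, 33.3 and 40.2 RPKM in vehicle and 8.95, 31.5, 13.7 and 8.19 RPKM with DMOG. CARS had 59.9, 48.1, 57.8 and 65.6 RPKM in vehicle and 14.1, 59.1, 25.7 and 10.3 RPKM with DMOG, so in all of these genes the low DMOG libraries were below every vehicle library. The subunits of the phenylalanyl enzyme fell by 1.32 (FARSB, adjusted p = 0.0152) and 0.97 (FARSA, adjusted p = 0.0314) on the log2 scale. The seryl enzyme SARS fell by 0.94 (adjusted p = 0.00441) and the valyl enzyme VARS by 0.81 (adjusted p = 0.0218). Because the RPKM of VARS are understated, the 1 added before the log damps its change as well. The log2 fold change of VARS was -1.025 with the RPKM as deposited and -1.06 in the authors' deposited comparison. The calls of TARS, FARSB, FARSA and VARS were each lost when replicate 1 or 4 of vehicle or replicate 1 of DMOG was left out, those of FARSA and VARS also without vehicle replicate 3, and that of FARSA without the filter on low values (adjusted p = 0.0705). The largest adjusted p without a single library was 0.061 for TARS, 0.062 for FARSB, 0.0974 for FARSA and 0.0816 for VARS.

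DARS, the aspartyl enzyme at chr2:136664254-136743222, went the other way. It had 24.8, 27.3, 23.8 and 25.6 RPKM in vehicle and 28.2, 26.0, 26.2 and 28.6 RPKM with DMOG, so as deposited the groups overlapped. After scaling, DMOG replicates 1, 3 and 4 lay above all 4 vehicle libraries, and the log2 fold change was 0.45 ± 0.10 (SE, adjusted p = 0.0197). With the RPKM as deposited it was 0.15 with an adjusted p of 0.229. The call was also lost when replicate 1, 3 or 4 of vehicle was left out (adjusted p = 0.0852, 0.0604 and 0.0742), or replicate 1 of DMOG (0.0717).

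The glutaminyl enzyme QARS, the arginyl enzyme RARS and the histidyl enzyme HARS did not pass the test. QARS had 29.5 to 37.2 RPKM over the 4 DMOG libraries against 34.1 to 42.8 RPKM in vehicle, and its log2 fold change was 0.06 (adjusted p = 0.743) after scaling but -0.24 as deposited. RARS had 17.2 to 33.1 RPKM with DMOG against 34.5 to 41.3 RPKM in vehicle, with a log2 fold change of -0.34 (adjusted p = 0.224). Without DMOG replicate 3 the adjusted p of RARS was 0.0341. For HARS the log2 fold change was -0.62 (adjusted p = 0.0612), and the gene passed with the replicate block (adjusted p = 0.0361), with the RPKM as deposited (0.0203) and without DMOG replicate 3 (0.00371). HARS and HARS2 overlap by 302 bases on opposite strands, so some of their reads may not be told apart.

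GARS and KARS, each the source of a cytosolic and a mitochondrial enzyme, fell by unlike amounts. GARS, at chr7:30634181-30673648, had 207, 238, 204 and 227 RPKM in vehicle and 30.8, 217, 69.1 and 20.5 RPKM with DMOG. Its low DMOG libraries stood at most at 69.1 RPKM against at least 204 RPKM in vehicle, and the log2 fold change was -2.26 ± 0.37 (SE, adjusted p = 0.00848). KARS, the lysyl enzyme at chr16:75661622-75681585, had 53.0, 50.0, 55.7 and 47.3 RPKM in vehicle and 29.7, 46.0, 36.6 and 26.0 RPKM with DMOG. The groups of KARS did not overlap even with DMOG replicate 2 as deposited, though after scaling that library lay within the vehicle range. The log2 fold change of KARS was -0.45 ± 0.14 (SE, adjusted p = 0.0435), and the call was lost without the filter on low values (adjusted p = 0.0761) or without any of vehicle replicates 1, 3 and 4 and DMOG replicates 1 and 4 (0.0696 to 0.133). Whether the difference between GARS and KARS exceeds error was not tested.

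Of the mitochondrial enzymes NARS2, EARS2, CARS2, LARS2 and WARS2 fell. NARS2, the asparaginyl enzyme at chr11:78147007-78285909, had 4.66, 3.20, 3.02 and 4.36 RPKM in vehicle and 1.52, 3.89, 2.12 and 0.813 RPKM with DMOG. Its DMOG replicates 1, 3 and 4 lay below all vehicle libraries by a smaller margin than those of the cytosolic NARS, and the log2 fold change was -0.83 ± 0.22 (SE, adjusted p = 0.0298). EARS2, the glutamyl enzyme at chr16:23533334-23568696, had 4.68, 3.39, 4.20 and 4.44 RPKM in vehicle and 1.76, 4.23, 2.79 and 0.792 RPKM with DMOG. The same 3 libraries were low in EARS2, with a log2 fold change of -0.82 ± 0.25 (SE, adjusted p = 0.0464).

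CARS2, the cysteinyl enzyme at chr13:111293757-111358480, had 19.2, 10.9, 20.3 and 18.0 RPKM in vehicle and 8.42, 16.5, 11.2 and 8.37 RPKM with DMOG. Vehicle replicate 2 was low for CARS2 and overlapped with the DMOG libraries. Over the 6 libraries the log2 fold change was -0.69 ± 0.13 (SE, adjusted p = 0.0115), and with vehicle replicate 2 added the adjusted p was 0.0554. LARS2, the leucyl enzyme at chr3:45430075-45590328, had 5.72, 5.35, 5.29 and 5.14 RPKM in vehicle and 2.53, 5.12, 2.97 and 1.75 RPKM with DMOG. Its vehicle libraries were tight and its 3 low DMOG libraries lay clear of them, with a log2 fold change of -0.68 ± 0.14 (SE, adjusted p = 0.0156).

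The tryptophanyl enzyme WARS2 at chr1:119573839-119683295 had the least spread among these. It had 2.86, 2.81, 2.73 and 2.72 RPKM in vehicle and 1.28, 2.56, 1.40 and 1.28 RPKM with DMOG, and the log2 fold change was -0.50 ± 0.10 (SE, adjusted p = 0.0140). Since 1 is added to each value before the log is taken, changes of genes this low are understated. As deposited RPKM, WARS2 in DMOG replicates 1, 3 and 4 was at 47.6% of vehicle replicates 1, 3 and 4. That share is also without scaling: with the RPKM as deposited and the 1 added, the log2 fold change was -0.70. None of these 5 calls held under every alternative. Without vehicle replicate 1 the adjusted p was 0.103 for NARS2, 0.128 for EARS2, 0.0524 for CARS2, 0.0694 for LARS2 and 0.0673 for WARS2, and without DMOG replicate 1 it was 0.0516 to 0.115. Without vehicle replicate 4 it was over 0.05 for NARS2, EARS2, LARS2 and WARS2, and without vehicle replicate 3 for EARS2 and LARS2.

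The other 11 mitochondrial genes did not pass the test. MARS2, the mitochondrial partner of the gene with the largest fall, had 2.98, 2.24, 2.56 and 2.37 RPKM in vehicle and 1.39, 1.95, 1.95 and 0.176 RPKM with DMOG. All 4 DMOG libraries of MARS2 lay below vehicle as deposited but not after scaling, and the log2 fold change of -0.67 had an adjusted p of 0.155 (0.0468 without DMOG replicate 3). IARS2, at chr1:220267455-220321383, had 39.2, 41.0, 37.6 and 42.4 RPKM in vehicle and 25.2, 35.3, 26.9 and 27.1 RPKM with DMOG. It was the 1 synthetase of the 36 in which all 4 DMOG libraries lay below all 4 vehicle libraries after scaling, a pattern that 7.33% of all genes showed. The log2 fold change of IARS2 was -0.28 (adjusted p = 0.0721), and it passed with the replicate block (adjusted p = 0.0492), with the RPKM as deposited (0.00613), without DMOG replicate 4 (0.0483) and with vehicle replicate 2 added (0.0431).

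The seryl enzyme SARS2 and the phenylalanyl enzyme FARS2 were near the threshold, with log2 fold changes of -0.50 (adjusted p = 0.0594) and -0.39 (adjusted p = 0.0523). SARS2 passed with the replicate block (adjusted p = 0.0269), and both passed with the RPKM as deposited (0.0141 and 0.0144). SARS2 also passed without vehicle replicate 3 (adjusted p = 0.046) or DMOG replicate 4 (0.035), and FARS2 without DMOG replicate 3 (0.0289). SARS2 overlaps MRPS12 by 189 bases on the other strand. MRPS12 reached 17.1 RPKM, and SARS2 had at most 5.99 RPKM in any library. The part of MRPS12 reads in the SARS2 values was not tested. YARS2, the tyrosyl enzyme, had 8.82, 6.01, 8.15 and 8.52 RPKM in vehicle and 5.99, 7.9995, 6.49 and 3.51 RPKM with DMOG, with overlap through vehicle replicate 2 and a log2 fold change of -0.36 (adjusted p = 0.157, and 0.0424 as deposited).

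AARS2, the alanyl enzyme, had 4.84, 3.17, 3.78 and 5.28 RPKM in vehicle and 4.22, 4.57, 4.25 and 4.34 RPKM with DMOG, so every DMOG library lay inside the vehicle range. PARS2 had 1.04, 1.22, 1.22 and 0.923 RPKM in vehicle and 0.914, 1.01, 0.843 and 0.805 RPKM with DMOG, with a log2 fold change of -0.00 (adjusted p = 0.984). AARS2, HARS2, RARS2, TARS2 and VARS2 had log2 fold changes of 0.04 to 0.22 after scaling, with adjusted p of at least 0.282, and as deposited all of these but VARS2 were below 0.

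The 3 low DMOG libraries kept an order among themselves in most cytosolic genes. DMOG replicate 4 was the lowest of the 4 DMOG libraries after scaling for 14 of 18 cytosolic genes, for GARS and KARS, and for 8 of 16 mitochondrial genes. DMOG replicate 3 was the highest of replicates 1, 3 and 4 for 16 cytosolic genes, GARS and KARS, and 9 mitochondrial genes. The share of all genes with this order was not counted, so it is not shown to be particular to synthetases. Over all 11122 genes tested, log2 distances from the vehicle mean ran from -4.92 to 6.32 in DMOG replicate 4. They ran from -4.48 to 5.06 in replicate 1 and from -3.32 to 3.66 in replicate 3. The median log2 distance of cytosolic genes from their vehicle mean was -1.63, 0.00, -0.94 and -1.93 in DMOG replicates 1 to 4. That of the mitochondrial genes was -0.36, -0.04, -0.22 and -0.40 in the same libraries. DMOG replicates 1, 3 and 4 all lay below all 4 vehicle libraries for 15 cytosolic genes, GARS, KARS and 6 mitochondrial genes, against 22.1% of all genes. The 6 were EARS2, FARS2, IARS2, LARS2, NARS2 and WARS2.

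Summed over the 17 cytosolic genes other than VARS, the RPKM as deposited were 1067, 926, 1033 and 1166 in vehicle replicates 1 to 4 and 277, 1041, 434 and 221 in DMOG replicates 1 to 4. The mean of DMOG replicates 1, 3 and 4 was 29.6% of the vehicle mean, and DMOG replicate 2 was at 99.3%. Over the 15 mitochondrial genes other than VARS2 the sums were 138, 126, 135 and 141 in vehicle and 92.1, 126, 103 and 81.0 with DMOG. Here the 3 low libraries were at 68.1% of vehicle and DMOG replicate 2 at 93.1%. The ratio of the cytosolic to the mitochondrial sum was 7.33 to 8.24 in vehicle, 8.27 in DMOG replicate 2 and 3.003, 4.21 and 2.73 in DMOG replicates 1, 3 and 4. As both sums come from 1 library, this ratio does not depend on scaling.

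**Figure D3:**
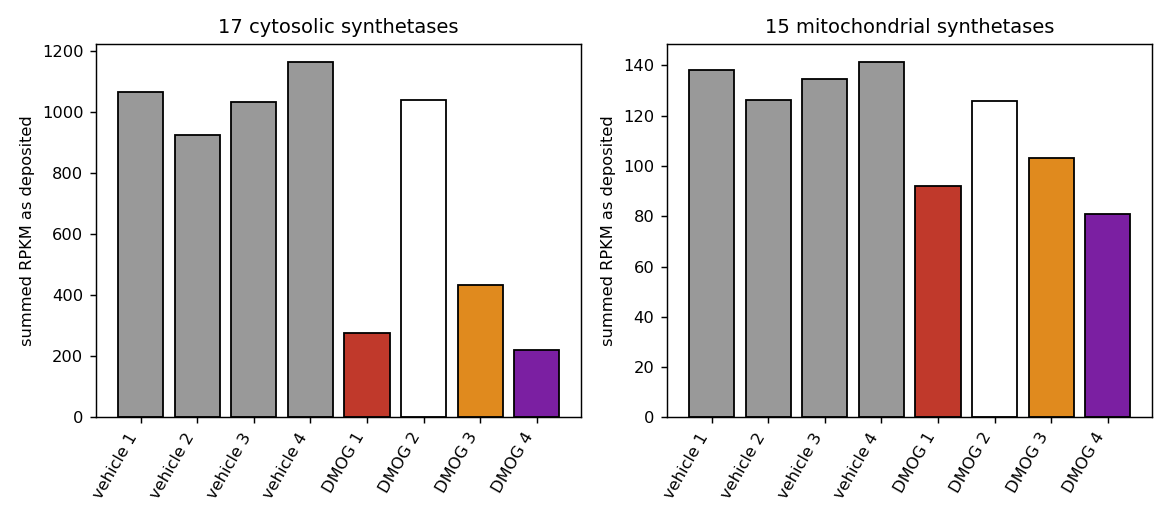
Summed RPKM as deposited in each library, over 17 cytosolic synthetases (left, without VARS) and 15 mitochondrial synthetases (right, without VARS2). Each bar is 1 library, grey for vehicle, coloured for DMOG replicates 1, 3 and 4 and white for DMOG replicate 2, and the 2 vertical axes differ in scale. The cytosolic sum of DMOG replicates 1, 3 and 4 is 221 to 434 against at least 926 in vehicle, and the mitochondrial sum is 81.0 to 103 against at least 126.

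Enzymes for the same amino acid could be set side by side in 16 pairs, with EPRS set against both EARS2 and PARS2. In 16 of 16 pairs the cytosolic gene had the lower log2 fold change of the 6 libraries, by a median of -1.28 (cytosolic minus mitochondrial). The 1 added before the log damps changes of the low mitochondrial genes. From the RPKM ratios themselves, the mean log2 ratio with DMOG was below that in vehicle in 16 of 16 pairs, by a median of -1.37. This difference was not tested. The widest gap was -2.82 for alanine: AARS stood at 15.9 to 27.6 times AARS2 in vehicle, at 21.6 times in DMOG replicate 2, and at 2.71, 7.09 and 0.491 times in DMOG replicates 1, 3 and 4. Thus AARS mRNA had the higher RPKM in every library except DMOG replicate 4. For isoleucine the IARS to IARS2 ratio was 1.25 to 2.20 in vehicle and 0.295, 0.391 and 0.331 in DMOG replicates 1, 3 and 4, so in those 3 libraries the mRNA of the mitochondrial enzyme had the higher RPKM.

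The MARS to MARS2 ratio was 48.1 to 66.2 in vehicle and 9.30, 18.6 and 31.8 in DMOG replicates 1, 3 and 4, with 70.7 in DMOG replicate 2. The WARS to WARS2 ratio was 19.2 to 26.0 in vehicle and 6.74, 10.2 and 4.08 in the same 3 libraries. In 13 of the 16 pairs the ratios of DMOG replicates 1, 3 and 4 were all below those of the 4 vehicle libraries. NARS to NARS2, RARS to RARS2 and SARS to SARS2 overlapped. DMOG replicate 2 lay in the vehicle range of the ratio in 15 pairs, the exception being MARS to MARS2.

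**Figure D4:**
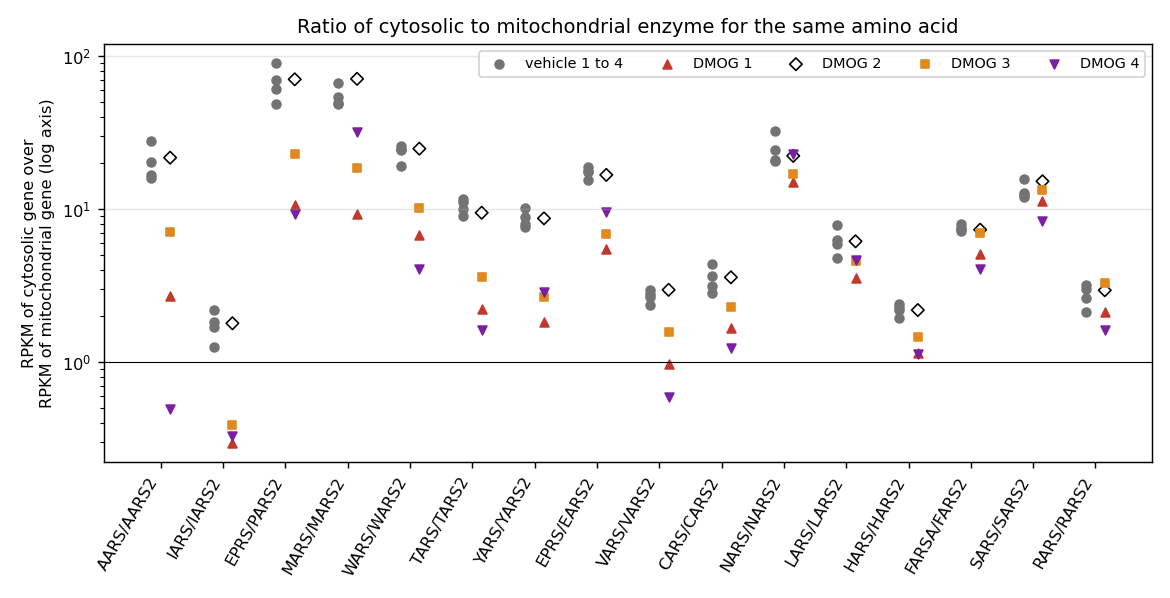
Ratio of the RPKM of the cytosolic to the mitochondrial gene for the same amino acid (log axis) in each library, with pairs ordered by the difference between their log2 fold changes. Grey points are vehicle libraries and the other symbols are DMOG replicates 1 to 4, and the line marks a ratio of 1. In 13 pairs DMOG replicates 1, 3 and 4 all lie below the vehicle libraries, and NARS/NARS2, RARS/RARS2 and SARS/SARS2 overlap.

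Membership of the multi-tRNA synthetase complex and structural class were also set beside the changes. Of the 8 synthetases of the complex, EPRS, IARS, KARS, LARS and MARS fell (62.5%, against 16.1% of all genes), DARS rose, and QARS and RARS did not pass. Of its scaffold proteins AIMP2 fell by 1.51 (adjusted p = 0.00786) and EEF1E1 by 1.14 (adjusted p = 0.00876) on the log2 scale, while AIMP1 had -0.30 (adjusted p = 0.127, and 0.0230 as deposited). AIMP2 had 19.8 to 25.7 RPKM in vehicle and 7.32, 21.7, 9.21 and 3.91 RPKM in DMOG replicates 1 to 4, the order of libraries seen in the cytosolic enzymes. Synthetases fall into 2 unrelated structural classes. Of the 19 class I genes 12 fell (63.2%), with a median log2 fold change of -0.69, and of the 17 class II genes 9 fell (52.9%) and 1 rose, with a median of -0.62. EPRS, which holds both a glutamyl and a prolyl enzyme, was counted in class I only.

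Across genes, those with higher vehicle levels had the lower log2 fold changes. Over the 34 synthetases other than VARS and VARS2 Pearson's r was -0.66 and Spearman's rho -0.64. Within the 17 cytosolic genes r was -0.74 and rho -0.73, and within the 15 mitochondrial genes r was 0.16 and rho 0.29. Genes are not independent replicates, the same vehicle libraries enter both measures, and the 1 added before the log damps changes of low genes, so these values are descriptions only.

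In the other lists of the tRNA charging pathway, counts after scaling are to be read against 16.1% of all genes lower and 13.7% higher. Counts as deposited are to be read against 34.5% lower and 6.13% higher. Of 6 tested genes with other roles in charging and proofreading, DTD1, which removes D-amino acids from tRNA, fell by 1.18 (adjusted p = 0.00244). TARSL2, another threonyl enzyme of the cytosol, rose by 0.69 (adjusted p = 0.0224) after scaling, with 0.48 and an adjusted p of 0.0595 as deposited. These 1 of 6 in each direction are near the background share. As deposited 4 of the 6 were lower and none higher. With the replicate block TRNT1, which adds the CCA end to tRNA, and PTRH2, a peptidyl-tRNA hydrolase, were also lower (adjusted p = 0.0371 and 0.0487, against 0.0606 and 0.0936 without it). The mitochondrion makes its glutaminyl-tRNA with an amidotransferase and formylates its initiator tRNA. Of the 4 genes tested for these steps, MTFMT, the formyltransferase, fell by 0.46 (adjusted p = 0.0275), and PET112, GATC and QRSL1 had log2 fold changes of -0.26 to -0.30 and did not pass. As deposited these 3 were lower too (adjusted p = 0.0107, 0.0227 and 0.0259), which made 4 of 4.

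Of 7 genes of the factors that carry charged tRNA to the ribosome, the mitochondrial TUFM and TSFM fell by 0.66 (adjusted p = 0.00794) and 0.62 (adjusted p = 0.0221), and the cytosolic EEF1A2 rose by 1.23 (adjusted p = 0.0122). These 2 of 7 lower and 1 of 7 higher are 28.6% and 14.3% of the list. For EEF1A1, the main cytosolic carrier, the log2 fold change was 0.46 with an adjusted p of 0.0964, and 0.0427 with the replicate block. As deposited it was 0.15 (adjusted p = 0.480). Of 9 genes of eIF2 kinases and their regulators 33.3% were lower and 11.1% higher: IMPACT (-0.70), EIF2S1 (-0.66), and the GCN2 gene EIF2AK4 (-0.54) fell, with adjusted p of 0.0239, 0.0196 and 0.0337. PPP1R15B, which directs dephosphorylation of eIF2, rose by 0.39 (adjusted p = 0.0396) after scaling, but as deposited the value was 0.10 (adjusted p = 0.547). GCN1L1, a partner of GCN2, passed with the replicate block (log2 fold change -0.50, adjusted p = 0.0349) and not without it (0.0608). With the RPKM as deposited 5 of the 9 were lower and none higher, against 34.5% and 6.13% of all genes.

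Of 21 listed genes of the ATF4 response other than synthetases, 16 fell and none rose (76.2% lower, against 16.1% of all genes), with a median log2 fold change of -1.77 over the 6 libraries. The largest falls were those of PSAT1 (-4.34, adjusted p = 0.0036), STC2 (-3.28, 0.0053), ASNS (-3.20, 0.0018) and NUPR1 (-2.59, 0.0018). ASNS, which makes asparagine, had 105 to 194 RPKM in vehicle and 16.3, 152, 23.6 and 10.8 RPKM in DMOG replicates 1 to 4, again with replicate 4 lowest and replicate 2 in the vehicle range. ATF4 mRNA itself had 97.3 to 163 RPKM in vehicle and 107 to 138 RPKM with DMOG, with a log2 fold change of 0.26 (adjusted p = 0.332). ATF4 protein was not measured. This list was drawn up with earlier results of these data known and is no independent evidence.

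The authors' deposited table, which gives their own comparison of the same 6 libraries, listed 15 of 18 cytosolic genes lower and 1 higher at an adjusted p under 0.05, with a median log2 fold change of -1.54. It listed GARS and KARS lower, and 7 of 16 mitochondrial genes lower with a median of -0.44. Over its 13424 genes 2361 were lower and 2522 higher. In the authors' deposited table HARS (adjusted p = 0.0461), FARS2 (0.0393) and SARS2 (0.0322) were lower, which the limma comparison did not call. DARS was higher there with a log2 fold change of 0.47 (adjusted p = 0.00145), and RARS (adjusted p = 0.296) and QARS (adjusted p = 0.747) were not called.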

How the data were processed

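Groups and replicate numbers 1 to 4 were read from the sample titles. Whether replicates are separate cultures is not stated, so the spread behind each p-value is that between these libraries and may be technical. The members and gene lists were chosen with earlier results of these data known.

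The authors deposited RPKM for 25369 genes in 8 libraries, and 100% of values came out as whole reads within 0.01 reads (31245695 to 39931833 per library). The submitters' processing notes name HTSeq 0.6.1, TopHat2 2.0.13, Bowtie2 2.2.3.0, bcl2fastq, Picard 1.129, SAMtools 1.3.1 and FastQC 0.11.5, and both GRCh37/hg19 and GRCh38/hg38. Gene positions are hg19 from the table and promoters GRCh38.p14 from RefSeq, and the builds were not mixed. The authors' deposited comparison table gives, per the file headers, group means on a signal scale, their fold ratio, its log2 value, a p-value and an adjusted p. Its means were recovered from replicates 1, 3 and 4 of each group with a relative misfit of at most 6.087e-10.

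Values were divided by median-ratio factors and tested as log2(value + 1) with limma-trend (limma 3.58.1, R 4.3.3, robust empirical Bayes, group only). The test was two-sided, and Benjamini-Hochberg adjustment ran over 11122 genes with 1 RPKM or more in at least 4 libraries. The script was tested on simulated data in which the changed genes moved by a fixed fold in every DMOG library. That setting holds no library like DMOG replicate 2. Values per library are given for GARS and KARS, the 6 cytosolic and 4 mitochondrial genes with the largest changes among those past the threshold, genes called against their compartment's majority, and the partners of all these in the other compartment. WARS2 and some others are such partners. Alternatives were the RPKM as deposited, upper-quartile factors, a pseudocount of 0.25, no filter, a replicate block, limma-voom on the recovered reads and leaving out each library. Over the 6 libraries, deviations of same-numbered libraries from their group means had correlations of 0.47 (number 1), 0.40 (number 3) and 0.34 (number 4). Each of these libraries matched its own number best, but the labels do not state a pairing. The main values of the 6 libraries do not use this matching, and those with the replicate block are given beside them. With the block 24 synthetases were called lower, against 21 without it. Over all 8 libraries the correlations were 0.07, -0.02, 0.53 and 0.24, and numbers 1 and 2 did not match best.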

Additional observations from a re-analysis of the deposited data

Results flagged for a closer look

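In 5 of 72 groups of 4 libraries (36 synthetases, vehicle and DMOG), a single library stood further from the other 3 than Dixon's critical value for the gap over the range allows, and chance would flag about 1 group in 20. In all 5 it was DMOG replicate 2, which was high. IARS had 63.22 RPKM there, against 7.441 to 10.53 in the other DMOG libraries. SARS had 72.72 RPKM, against 26.21 to 32.42. WARS had 63.37 RPKM, against 5.208 to 14.18, and its mitochondrial partner WARS2 had 2.56 RPKM, against 1.276 to 1.396. YARS had 69.44 RPKM, against 9.99 to 17.39. In IARS, WARS and YARS the value of that library lay within the vehicle range, as did that of SARS, and in WARS2 it lay below it.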

How the results depend on the processing

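No result changed sign under an alternative in a way that reversed a call. Over the 6 libraries the RPKM as deposited gave 3836 genes lower and 682 higher, 9 mitochondrial genes lower, 0 synthetases and 0 cytosolic synthetases higher, and medians of -1.82 (cytosolic) and -0.62 (mitochondrial). Without the filter 3 mitochondrial genes were lower. The mitochondrial median was -0.44 with a pseudocount of 0.25, -0.45 with limma-voom (cytosolic -1.60) and -0.35 with vehicle replicate 2 added, a setting chosen after seeing the data. Over the 8 libraries the cytosolic and mitochondrial medians were -1.33 and -0.46 as deposited and -1.18 and -0.31 with a pseudocount of 0.25, and the mitochondrial median was -0.31 with limma-voom. Leaving out 1 of the 6 libraries gave 539 to 2527 genes lower and 379 to 2224 higher, 10 to 25 synthetases lower and 0 to 1 higher, 9 to 16 cytosolic lower and 0 to 1 higher, 0 to 7 mitochondrial lower, and medians of -1.78 to -1.36 and -0.45 to -0.29. Leaving out 1 of the 8 gave 0 to 1970 genes lower and 0 to 1724 higher, 0 to 24 synthetases lower and 0 to 1 higher, 0 to 15 cytosolic lower and 0 to 1 higher, 0 to 7 mitochondrial lower, and medians of -1.50 to -0.85 and -0.35 to -0.21. Fewer libraries enter each of these fits, and the cause of the other shifts was not tested. The replicate block called 2337 genes lower and 2181 higher over the 6 libraries and 24 synthetases lower, adding HARS, IARS2 and SARS2 to the calls and changing no other synthetase's call. Over the 8 libraries the block gave 0 calls. The synthetase with the fewest reads had 17 in a library, so counting error is large for MARS2 in DMOG replicate 4.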
